A study of Homo sapiens with 6 samples.

Results

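Antisense genes named after a protein-coding or other gene on the opposite strand (the sense partner) were followed together with that partner in U87-MG cells. Members were taken by symbol, as letters and digits followed by -AS and a number, and were selected on their measured counts, which had to sum to at least 100 over the 6 libraries, and on the presence of the partner's symbol in the table. Of 61806 genes, 1752 had such a symbol, 1734 of these had a partner in the table, and 359 antisense genes with 356 partners were kept. 1 further antisense gene that reached the count was not analysed here. Both genes of a pair reached the count in 323 pairs, with 320 distinct partners, and the partner stayed under it in 36 pairs.

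U87-MG is an established human glioblastoma line. The 3 NC libraries are labelled wildtype, and the other 3, labelled siRNA1, siRNA2 and siRNA3, carry the genotype label GRIK1 knockdown. GRIK1 encodes a kainate-type glutamate receptor subunit, and the series asks which genes lie downstream of it. The methods describe transfected siRNA, the design note speaks of shRNA, and the labels do not say whether a number stands for a replicate or for an siRNA sequence. The methods give 3 GRIK1 siRNA sequences under the same numbers, and the study's text states that the first was carried into later experiments, without naming the sequence used for the libraries. The numbers were used as replicates, so the p-values measure the spread between these libraries, which may be technical. All 6 libraries come from the same cell line, and no cells other than U87-MG are named.

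Antisense genes are transcribed from the DNA strand opposite to another gene. Some start next to the partner's promoter and run away from it or across its first exon, some converge on its 3′ end, and some lie within its introns. Individual antisense RNAs have been described as regulators of their partner in cis, as regulators elsewhere in the cell, or as by-products of open promoters, and most are long noncoding RNAs of low abundance that are removed quickly in the nucleus.

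Total counts per library ran from 11099909 to 14006968. NC replicate 3 stood apart from all other libraries: its correlation of log2 CPM (counts per 1e6 counts of the scaled library) with NC replicates 1 and 2 was 0.95 for each, against 0.99 between those. The 3 libraries labelled GRIK1 siRNA correlated with each other at 0.99. The NC libraries held 18, 9 and 8 reads of GRIK1 itself and the other group 15, 20 and 20, a difference of 0.12 on the log2(FPKM + 1) scale (FPKM, fragments per kilobase of exon and per 1e6 counts; two-sided exact permutation p = 0.4, smallest possible 0.1). GRIK1 was thus not lower in the libraries labelled GRIK1 siRNA, so each direction below is that of a label. These 8 to 20 reads per library are few, so the comparison is imprecise. The study's text reports an efficient knockdown of GRIK1 in U87-MG cells in its cell experiments. Vimentin (824.62 to 1076.17 FPKM) and CD44 (50.77 to 71.63 FPKM) were abundant, whereas the glial and neural progenitor markers GFAP, S100B, SOX2, OLIG2 and NES stayed at or under 0.83 FPKM. GFAP (0.05 to 0.1 FPKM in NC, 0.25 to 0.28 FPKM in the other group) and SOX2 (0 to 0.04 FPKM and 0.06 to 0.12 FPKM) were higher in every library labelled GRIK1 siRNA. The 12 markers of neurons, immune, endothelial and epithelial cells had a summed level of 5.72 to 8.48 FPKM in NC and of 8.79 to 9.12 FPKM in the other group. 3 of them (RBFOX3, SYT1 and CD68) were higher and 1 (SNAP25) was lower in every library labelled GRIK1 siRNA, AIF1 was at 0 throughout, and their part in the results was not tested.

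Promoter windows show how closely many of these pairs are joined. RefSeq (GRCh38.p14) gave a window of 300 bases, 250 before to 50 after a transcription start, for 271 antisense genes and 294 partners, and for both genes of 242 pairs. In 75 pairs the windows overlapped, by a median of 191 bases, so that the same stretch of DNA lies around both starts. The windows of the antisense genes had a median GC content of 64.3% and a median ratio of observed to expected CG pairs of 0.78, close to those of the partners (65.0% and 0.78) and above those of all windows in the table (58.7% and 0.58). TATAAA, searched on both strands, was present in 6.34% of antisense windows, 7.17% of partner windows and 11.5% of all windows. The antisense genes were selected on their counts, while all windows cover 27305 genes without such a selection. Windows of genes that reached the count were not compared as a background.

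The windows below belong to pairs with overlapping windows in which the antisense gene passed the test or the ratio to the partner was among the 6 largest differences past its test. UGDH-AS1 and HERPUD2-AS1 also passed the ratio test and share 101 and 170 bases with the window of the partner, and their windows are not printed. They lie at chr1:15409769-15410068 on the minus strand (EFHD2-AS1), chr5:181260962-181261261 on the plus strand (TRIM52-AS1), chr11:65181785-65182084 on the minus strand (CAPN1-AS1) and chr7:105014092-105014391 on the minus strand (KMT2E-AS1). Each is written 5′ to 3′ on the strand of the antisense gene, and capitals mark the bases that also belong to the window of the partner on the other strand (169, 168, 193 and 163 bases, in that order).
EFHD2-AS1: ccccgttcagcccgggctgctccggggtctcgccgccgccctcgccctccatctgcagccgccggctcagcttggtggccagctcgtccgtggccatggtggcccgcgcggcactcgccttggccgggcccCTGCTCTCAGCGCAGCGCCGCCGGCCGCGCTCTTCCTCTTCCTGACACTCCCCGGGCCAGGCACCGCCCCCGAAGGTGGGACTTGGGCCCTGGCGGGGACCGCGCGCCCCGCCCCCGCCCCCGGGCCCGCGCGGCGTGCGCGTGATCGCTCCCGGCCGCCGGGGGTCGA
TRIM52-AS1: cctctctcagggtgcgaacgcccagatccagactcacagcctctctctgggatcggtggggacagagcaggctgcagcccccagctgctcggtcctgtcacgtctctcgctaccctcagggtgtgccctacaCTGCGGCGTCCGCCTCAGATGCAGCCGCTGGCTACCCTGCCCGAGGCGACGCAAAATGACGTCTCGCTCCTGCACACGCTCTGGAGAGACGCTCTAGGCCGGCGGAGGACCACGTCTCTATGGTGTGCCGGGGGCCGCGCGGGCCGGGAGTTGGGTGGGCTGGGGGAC
CAPN1-AS1: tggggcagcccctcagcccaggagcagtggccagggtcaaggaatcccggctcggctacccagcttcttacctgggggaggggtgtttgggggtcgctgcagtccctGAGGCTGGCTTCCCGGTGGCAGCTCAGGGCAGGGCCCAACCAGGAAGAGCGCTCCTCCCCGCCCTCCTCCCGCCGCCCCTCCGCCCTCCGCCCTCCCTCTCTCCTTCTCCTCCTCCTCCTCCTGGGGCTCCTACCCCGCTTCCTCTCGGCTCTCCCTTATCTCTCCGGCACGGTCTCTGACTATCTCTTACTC
KMT2E-AS1: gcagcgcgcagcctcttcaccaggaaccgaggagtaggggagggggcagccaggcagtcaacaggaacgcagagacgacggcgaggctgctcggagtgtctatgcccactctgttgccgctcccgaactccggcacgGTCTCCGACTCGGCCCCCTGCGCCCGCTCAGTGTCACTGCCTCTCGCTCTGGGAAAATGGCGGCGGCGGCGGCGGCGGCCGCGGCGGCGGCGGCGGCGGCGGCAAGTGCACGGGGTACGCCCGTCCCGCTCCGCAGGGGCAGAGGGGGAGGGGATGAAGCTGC

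None of these windows held TATAAA. The window of EFHD2-AS1 had the highest GC content of these, 79.7%, with 43 CG pairs. RefSeq's starts differ from those of the deposited table for EFHD2-AS1, TRIM52-AS1 and KMT2E-AS1, so the windows describe the RefSeq starts.

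Antisense genes were expressed at low levels. Their median level was 1.17 FPKM, against 5.54 FPKM for the partners, and within a pair the antisense gene reached a median of 22.3% of its partner's FPKM. FPKM divides by all exonic bases, so bases whose reads were not counted lower it, which was not corrected here. At least 1 FPKM was reached by 196 of the 359 antisense genes and over 10 FPKM by 12, and 89 were higher than their partner. Count sums ran from 100 to 17182 with a median of 283, compared with 3183 for the tested partners and 1790 for all 14229 genes tested. Together the antisense genes took 0.367%, 0.361% and 0.290% of the counts in NC replicates 1, 2 and 3, and 0.365%, 0.378% and 0.376% in the other group. The lowest share was that of NC replicate 3, and the other 5 libraries lay close together. In these bulk samples, fewer cells that transcribe a gene and less of its RNA per cell cannot be told apart.

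**Figure D1:**
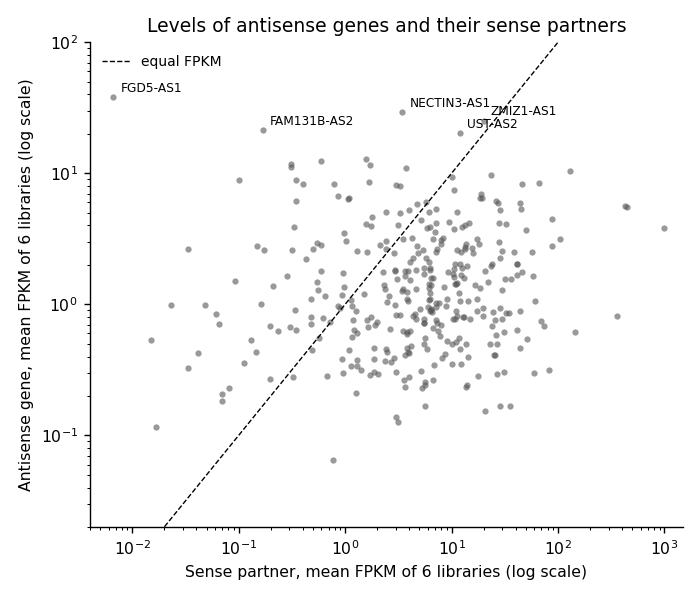
Mean FPKM of each antisense gene (vertical, log scale) against that of its sense partner (horizontal, log scale), 1 point per pair, with a dashed line of equal FPKM; pairs whose partner was at 0 are not drawn. Most points lie under the line, while 89 antisense genes were higher than their partner, among them FGD5-AS1, NECTIN3-AS1, ZMIZ1-AS1, FAM131B-AS2 and UST-AS2, which had the highest FPKM.

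The most abundant antisense genes did not pass the test. FGD5-AS1 (ENSG00000225733), a broadly expressed long noncoding RNA, stood at 37.97, 36.63 and 51.88 FPKM in NC and at 32.5, 34.26 and 34.2 FPKM in the other group. It was lower in the latter with no overlap of the groups, but the highest value was that of NC replicate 3, and the log2 fold change was -0.41 (SE 0.19, edgeR adjusted p = 0.213) with it and -0.17 (SE 0.05, adjusted p = 0.00882) without it. FGD5, a guanine nucleotide exchange factor of endothelial cells, had 0 to 3 counts. NECTIN3-AS1 was at 26.44, 28.11 and 39.74 FPKM in NC and at 27.6, 26.66 and 26.39 FPKM in the others, where only NC replicate 3 stood out. ZMIZ1-AS1 was lowest in NC replicate 3 (12.61 FPKM) and lay between 25.97 and 30.34 FPKM elsewhere, and its partner ZMIZ1, a transcriptional coactivator, was lowest in the same library (109 CPM against 216 to 247 CPM). FAM131B-AS2 lies on the same strand as FAM131B in the deposited table, so it is antisense by name only. It had 24.29, 22.91 and 23.36 FPKM in NC and 20.63, 18.78 and 17.78 FPKM in the others (log2 fold change -0.38, SE 0.12, edgeR adjusted p = 0.109). The FPKM of UST-AS2, 20.3 on average, rests on 22 to 39 counts per library and an exonic size of 130 bases, where the median of the antisense genes was 3675 bases.

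Arrangement on the chromosome was read from the coordinates and strands of the deposited table. Head-to-head overlap, in which the 5′ ends lie in the shared stretch, was found in 161 pairs. The 3′ ends overlapped (tail-to-tail) in 76 pairs, the antisense gene lay inside its partner in 71 and the partner inside the antisense gene in 31. A further 16 pairs were divergent without overlap, 2 were convergent without overlap, and 2, that of FAM131B-AS2 among them, lay on the same strand in spite of the name. The starts of 102 pairs were less than 1000 bp apart. Antisense genes inside their partner had the highest median level of the 4 large classes, 2.54 FPKM, against 1.06 FPKM for head-to-head and 1.05 FPKM for tail-to-tail pairs and 0.80 FPKM for those that contain the partner.

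How far the counts of both strands were kept apart was checked on genes whose exon model equals that of GENCODE 29. Of 401 such genes whose exonic bases all lie under exons of the opposite strand, 387 (96.5%) were at 0 in every library, against 11630 of 20750 (56.0%) of genes that share no exonic base. For genes of GENCODE's antisense type the shares were 96.6% (256 of 265) and 39.7% (700 of 1763). Of 351 genes covered by exons of the same strand only, 265 (75.5%) were at 0 as well. A share at 0 does not tell uncounted reads from genes without transcription. Whether reads in bases that both strands use were counted was not tested. Where they were not counted, the values describe the parts of each gene that its partner does not cover. There the FPKM levels above, the medians by arrangement included, would be too low, and not equally for every gene. Reads of a partner counted for its antisense gene would make them too high, so the direction for the members is not known. The strand setting is not given in the sources used here, and without it reads of a gene and of its antisense partner cannot be told apart. Only 116 of the 359 antisense genes (32.3%) had such a model, so the check is void for the members themselves.

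Between the groups, 8 of 359 antisense genes passed the test (2.23%; edgeR quasi-likelihood test, adjusted p under 0.05 over all 14229 genes), with 6 higher and 2 lower in the libraries labelled GRIK1 siRNA. The background was 4.19% of all genes, 2.28% higher and 1.91% lower, so the share among antisense genes was below that of all genes. For 6 of the 8 the absolute log2 fold change was over 1 (background 1.76%). An unadjusted p under 0.05 was found for 80 antisense genes (22.3%, against 27.2% of all genes), and DESeq2 called 29 (8.08%, background 12.8%). The antisense genes have few counts, and the median SE of their log2 fold change was 0.29, compared with 0.18 for the partners and 0.20 for all genes. Of the members, 51 would have stayed under the count of 100 had both groups been at the level of the lower group. HYI-AS1 and SRD5A3-AS1, both called higher, are among them, so the counts of members passed are not a sample free of the filter.

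The outcome rested on single libraries. Without NC replicate 3, 91 antisense genes passed (25.3%, 53 higher and 38 lower), against 40.7% of all genes (19.9% higher and 20.8% lower), and the absolute log2 fold change was over 1 for 21 of them (background 3.3%). All 8 of the genes called with 6 libraries were among the 91. Leaving out any other single library (NC replicate 1 or 2, or GRIK1 siRNA replicate 1, 2 or 3) left 0 calls in edgeR among all 14229 genes, with a smallest adjusted p of 0.0606 to 0.180 and with 45 to 87 antisense genes (12.5% to 24.2%) at an unadjusted p under 0.05, where 15.6% to 29.9% of all genes had one. DESeq2 was not run on these subsets. In each of these fits the 8 genes kept their direction.

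**Figure D2:**
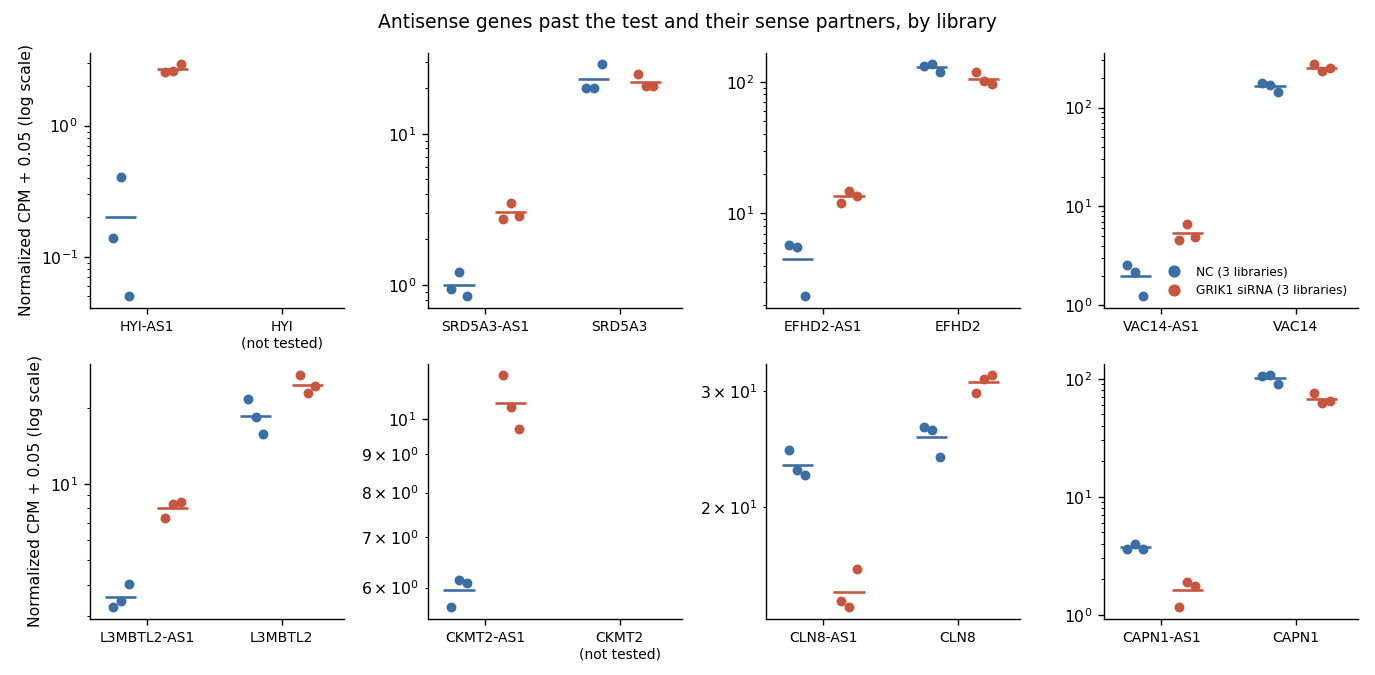
Normalized CPM plus 0.05 (log scale) of the 8 antisense genes past the test and their sense partners, 1 panel per pair, with 1 point per library (blue, NC; red, libraries labelled GRIK1 siRNA) and bars at the mean. The 3 points of each group do not overlap for any of the 8 antisense genes, and only VAC14 among the partners passed the test.

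HYI-AS1 (ENSG00000229348, chr1:43453927-43456995, plus strand) starts head-to-head with HYI, which is annotated as a hydroxypyruvate isomerase. NC counts were 1, 4 and 0, and those of the other group 32, 33 and 39. HYI-AS1 thus reached the count limit of 100 only through the group in which it was high. Every library labelled GRIK1 siRNA was higher than every NC library, and the fitted log2 fold change was 4.12 (SE 0.61, edgeR adjusted p = 0.0281). At such low NC counts this value depends on the prior count and on single NC libraries. It was 3.52 without NC replicate 3 and 5.68 without NC replicate 2. HYI was listed at 0 in all 6 libraries, which allows up to 3 counts per library for counting error only, so no difference of the partner could be computed. Whether reads of HYI were left uncounted in bases shared with another gene was not tested.

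SRD5A3-AS1 (ENSG00000249700, chr4:55363971-55395847, minus strand) overlaps the 3′ end of SRD5A3, an enzyme of dolichol synthesis. It stood at 0.889, 1.16 and 0.793 CPM in NC and at 2.68, 3.41 and 2.82 CPM in the others. The groups did not overlap (log2 fold change 1.64, SE 0.27, edgeR adjusted p = 0.0315). With both groups at its NC level, SRD5A3-AS1 would have stayed under the count limit of 100. SRD5A3 had 20.0, 20.1 and 28.8 CPM against 24.6, 20.5 and 20.7 CPM, with overlapping groups (-0.07, SE 0.18, adjusted p = 0.825).

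EFHD2-AS1 (ENSG00000228140, chr1:15402979-15409433, minus strand) runs away from EFHD2, which encodes a calcium-binding protein of the actin cytoskeleton. Its values were 5.69, 5.46 and 2.30 CPM in NC and 11.9, 14.7 and 13.6 CPM in the other group. NC replicate 3 was the lowest, yet the other NC libraries were also below every library of the other group, and the log2 fold change was 1.59 (SE 0.32, edgeR adjusted p = 0.0440) with NC replicate 3 and 1.26 (SE 0.15, adjusted p = 6.22e-06) without it. EFHD2 was at 131, 136 and 119 CPM against 118, 100.5 and 96.7 CPM. The partner thus lay slightly lower without overlap (-0.29, SE 0.12) and did not pass (adjusted p = 0.184). This is 1 of the pairs whose promoter windows share bases, printed above.

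VAC14-AS1 (ENSG00000214353, chr16:70755035-70773251, plus strand) lies inside VAC14, the scaffold of the PIKfyve lipid kinase complex. It had 2.49, 2.15 and 1.19 CPM in NC and 4.58, 6.67 and 4.90 CPM in the others (log2 fold change 1.47, SE 0.31, edgeR adjusted p = 0.0491). VAC14 itself had 177, 170.2 and 143 CPM against 275, 236 and 249 CPM (0.63, SE 0.13, edgeR adjusted p = 0.0473). Both genes were higher in every library labelled GRIK1 siRNA, and this was the only pair of 323 in which both genes passed. The strand setting is not given, so reads of VAC14 counted for VAC14-AS1 cannot be told apart from reads of VAC14-AS1 itself.

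L3MBTL2-AS1 (ENSG00000235513, chr22:41207592-41228500, minus strand) lies inside L3MBTL2, a Polycomb group gene. The antisense gene stood at 3.20, 3.40 and 3.97 CPM in NC and 7.26, 8.30 and 8.39 CPM in the others (log2 fold change 1.18, SE 0.18, edgeR adjusted p = 0.0281). For L3MBTL2 the values were 21.6, 18.4 and 15.6 CPM against 26.7, 22.8 and 24.2 CPM (0.41, SE 0.16, adjusted p = 0.153). Neither gene's groups overlapped, and only the antisense gene passed.

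CKMT2-AS1 (ENSG00000247572, chr5:81201341-81301565, minus strand) contains CKMT2, the sarcomeric mitochondrial creatine kinase gene. It had 5.6, 6.09 and 6.03 CPM in NC and 11.4, 10.3 and 9.65 CPM in the others, without overlap (log2 fold change 0.82, SE 0.15, edgeR adjusted p = 0.0372). CKMT2 had 4, 1 and 4 counts in NC and 13, 6 and 5 counts in the others, too few to be tested.

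CAPN1-AS1 (ENSG00000254614, chr11:65177606-65181834, minus strand) starts head-to-head with CAPN1, the catalytic subunit of the protease calpain-1. It was 1 of the 2 antisense genes called lower, from 3.56, 3.94 and 3.57 CPM to 1.10, 1.86 and 1.71 CPM (log2 fold change -1.24, SE 0.26, edgeR adjusted p = 0.0481). CAPN1 had 106, 107 and 91.0 CPM against 76.4, 62.5 and 64.7 CPM (-0.58, SE 0.13, adjusted p = 0.0546). Both genes of the pair were lower in every library labelled GRIK1 siRNA, and without NC replicate 3 both passed, with adjusted p of 0.0024 for the antisense gene and 2.73e-06 for CAPN1.

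CLN8-AS1 (ENSG00000253982) lies inside CLN8, which encodes a membrane protein of the endoplasmic reticulum that is mutated in a neuronal ceroid lipofuscinosis. It was the other antisense gene called lower, from 24.4, 22.8 and 22.3 CPM to 14.4, 14 and 16.0 CPM (log2 fold change -0.64, SE 0.12, edgeR adjusted p = 0.0400). CLN8 stood at 26.4, 26.2 and 23.8 CPM in NC and 29.7, 31.3 and 31.6 CPM in the others (0.28, SE 0.11, adjusted p = 0.164). The groups did not overlap for either gene, and the differences of the pair pointed in opposite directions.

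Pooled over arrangements, the antisense genes leaned to higher values in the libraries labelled GRIK1 siRNA. Those of head-to-head pairs, the largest class, showed little of this lean. The median log2 fold change of the antisense genes was 0.19, with 223 of 359 above 0. The median of the partners was 0.02 and that of all genes -0.03, with 47.3% of all genes above 0. The 51 members that would miss the count limit at the level of the lower group are included in this. More genes had a count in every library labelled GRIK1 siRNA (26134 to 27049) than in every NC library (23902 to 24993). Whether this bears on the lean was not tested. Without NC replicate 3 the median of the antisense genes was 0.10, with 214 above 0. It was -0.01 for the partners and -0.00 for all genes, of which 49.7% lay above 0. By arrangement, the median was 0.29 for antisense genes inside the partner, 0.27 for tail-to-tail and 0.28 for divergent pairs. It was 0.20 for those that contain the partner and 0.02 for head-to-head pairs. Without NC replicate 3 these medians were 0.22, 0.21, 0.05, 0.08 and 0.03, in that order. NC replicate 3 was the lowest of the 6 libraries for 167 antisense genes (46.5%) and the highest for 61 (17.0%), while for all genes these shares were 37.5% and 37.9%. The groups did not overlap for 120 antisense genes (33.4%), of which 81 were higher and 39 lower, and for 45.3% of the partners (83 higher and 62 lower). The background was 41.4% of all genes, 21% higher and 20.4% lower.

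**Figure D3:**
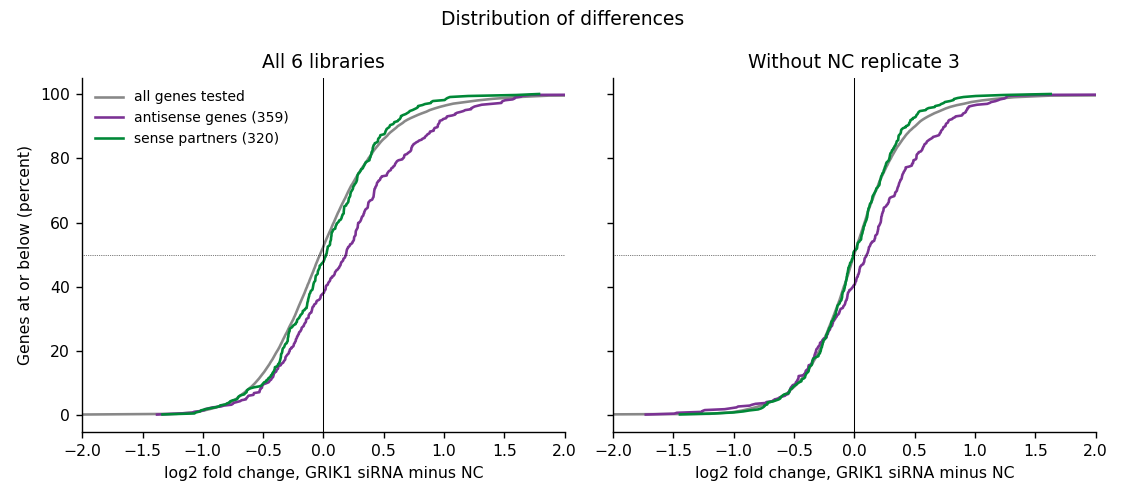
Share of genes at or below a log2 fold change (horizontal, GRIK1 siRNA minus NC) for the antisense genes (purple), sense partners (green) and all genes tested (grey), with 6 libraries (left) and without NC replicate 3 (right). The purple line lies to the right of the others above its lower part, with a median of 0.19 on the left and 0.10 on the right.

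Among the sense partners, 13 of 320 passed the test (4.06%, 7 higher and 6 lower), close to the background of 4.19%. In the fit without NC replicate 3 it was 156 (48.8%, 80 higher and 76 lower), where 40.7% of all genes passed. Of the 13 partners, those called lower were TSC22D1, ALDH1A3, HMGA2, PRR7, DUT and HMGN3, with log2 fold changes from -1.02 to -0.71. Those called higher were TRIM52, DIP2C, WDFY3, SPAG5, SEC24B, VAC14 and STXBP5, from 0.50 to 1.03. These names complete the count and were chosen after their values were seen. The antisense gene of 12 of these 13 partners did not pass.

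How a pair's differences related was described across the 323 pairs. Pearson's r between the log2 fold change of the antisense gene and that of its partner was 0.23 (Spearman's rho 0.21), and both had the same sign in 179 pairs (55.4%). Pairs share libraries and are not replicates, so no p is given. The 2404 other pairs of overlapping genes on opposite strands gave r = 0.21 and 55.9% of the same sign, and 14204 pairs of neighbouring genes gave r = 0.14 and 54.4%. With NC replicate 3 left out, the member pairs gave r = 0.25 and 187 pairs of the same sign (57.9%), the other opposite-strand pairs 0.21 and the neighbours 0.12. Both genes were higher in 114 pairs and lower in 65, the antisense gene alone was higher in 88 and the partner alone in 56. Within single libraries, the deviations of both genes from their means over the 6 libraries correlated at 0.10 to 0.23 across pairs, and NC replicate 3, at 0.20, lay within that range.

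Among the arrangements with at least 20 pairs, r was highest in tail-to-tail pairs when 6 libraries were used. In these 69 pairs it was 0.47 (rho 0.50) with 46 of the same sign, and 0.43 (rho 0.42) with 50 of the same sign without NC replicate 3. In 993 other opposite-strand pairs of the same arrangement r was 0.15. Head-to-head pairs showed no such relation, with r = 0.05 (rho -0.01) and 71 of 148 of the same sign, and r = 0.10 without NC replicate 3. The 819 other head-to-head pairs had r = 0.17. Where one gene lay inside the other (89 pairs), r was 0.27, and 0.38 without NC replicate 3, beside 0.29 and 0.27 in 592 other pairs. For the 20 of these in which the partner lay inside the antisense gene, r was 0.29, and 0.45 without NC replicate 3. In the 73 tested pairs whose promoter windows share bases, 37 had the same sign and r was 0.07 (38 and 0.11 without NC replicate 3). The difference in r between the classes was not tested. Without the strand setting, a difference shared by a pair cannot be told apart from reads of 1 gene counted for the other.

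**Figure D4:**
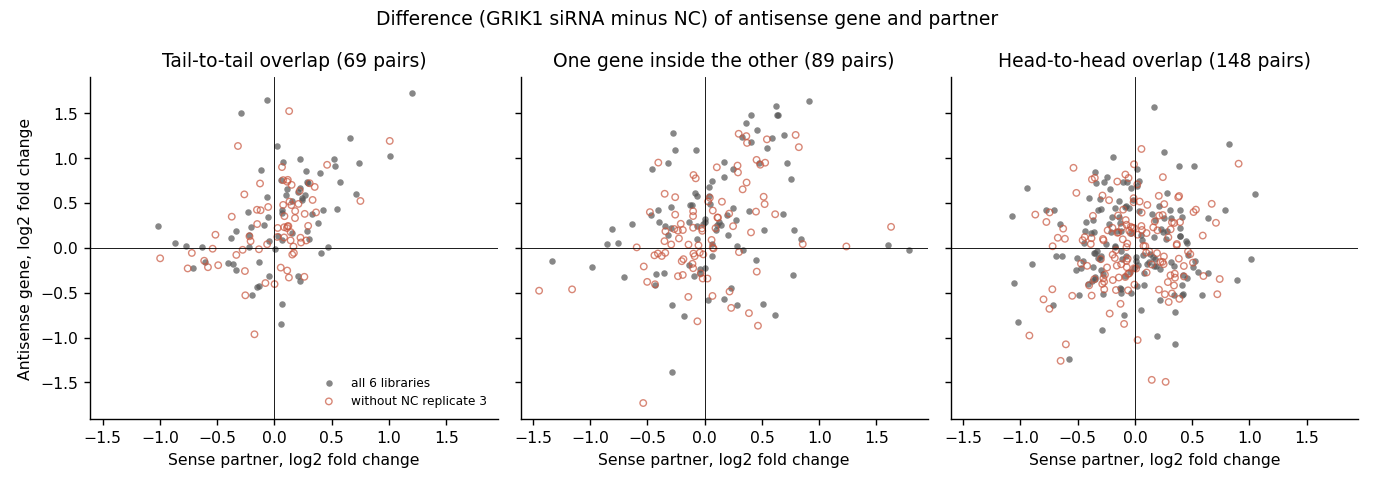
Log2 fold change (GRIK1 siRNA minus NC) of the antisense gene (vertical) against that of its sense partner (horizontal) in tail-to-tail pairs, pairs with one gene inside the other and head-to-head pairs, 1 point per pair; filled points use 6 libraries and open points leave out NC replicate 3. The points rise from lower left to upper right in the 69 tail-to-tail pairs (r = 0.47) and form a round cloud in the 148 head-to-head pairs (r = 0.05).

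Without NC replicate 3, both genes passed in 42 pairs, of which 28 (66.7%) had the same sign (20 both higher, 8 both lower) and 14 opposite signs. In the other opposite-strand pairs both genes passed in 406, and 64.8% of these had the same sign. The share among the member pairs is thus near that of other overlapping genes.

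Among pairs with differences of the same sign, the smaller of both differences was largest in P4HA2, CCDC183, DIP2C, TSC22D1 and SPAG5. P4HA2-AS1 had 1.51, 1.61 and 0.238 CPM in NC and 2.13, 1.40 and 3.19 CPM in the others, with overlapping groups, while P4HA2, a collagen prolyl hydroxylase subunit, had 332, 330.4 and 171 CPM against 570.0, 560.1 and 543 CPM. For P4HA2 this gave a log2 fold change of 1.01 (SE 0.25, edgeR adjusted p = 0.0697) with 6 libraries and 0.75 (SE 0.05, adjusted p = 3.34e-09) without NC replicate 3. CCDC183-AS1 had 1.96, 1.07 and 0.159 CPM against 2.05, 4.65 and 3.71 CPM. Its partner CCDC183 had 1.33, 2.15 and 1.11 CPM against 3.63, 3.57 and 3.34 CPM, and neither passed. DIP2C-AS1 was uneven within the group, at 1.34 CPM in GRIK1 siRNA replicate 1 and 7.22 and 7.42 CPM in replicates 2 and 3, against 2.13, 2.33 and 0.714 CPM in NC. DIP2C was even, at 95.4, 88.9 and 88.0 CPM against 52.4, 52.2 and 40.6 CPM (0.91, SE 0.14, edgeR adjusted p = 0.0281).

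TSC22D1, a leucine zipper gene induced by TGF-beta, fell from 319.6, 327 and 395 CPM to 173, 169.7 and 170.2 CPM (log2 fold change -1.02, SE 0.13, edgeR adjusted p = 0.0228). TSC22D1-AS1, which starts head-to-head with it, had 4.09, 3.49 and 2.70 CPM against 1.89, 2.33 and 1.56 CPM, lower in every library without passing (-0.83, SE 0.27, adjusted p = 0.116). SPAG5, a spindle protein gene, rose from 10.4, 10.4 and 12.3 CPM to 20.4, 19.2 and 19.0 CPM (0.82, SE 0.13, edgeR adjusted p = 0.0310). SPAG5-AS1 had 3.02, 2.42 and 1.59 CPM against 4.81, 5.74 and 5.12 CPM, also without overlap (1.16, SE 0.26, adjusted p = 0.0564).

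The ratio of antisense gene to partner was tested directly, with limma over all 2727 opposite-strand pairs. In 9 of 323 member pairs (2.79%, 3 higher and 6 lower) the ratio differed between the groups, against 4.18% of all pairs and 4.37% of the 2404 others, and 74 member pairs (22.9%) had an unadjusted p under 0.05, against 25.3% of all pairs. Once NC replicate 3 was left out it was 65 (20.1%, 40 higher and 25 lower), against 28.8% and 30.0%, and all 9 were among them. Leaving out any other single library left 0 of the 323 pairs past the test in limma, with 42 to 79 (13% to 24.5%) at an unadjusted p under 0.05, where 15.3% to 27.9% of all pairs had one. No other tool was run on the ratio.

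**Figure D5:**
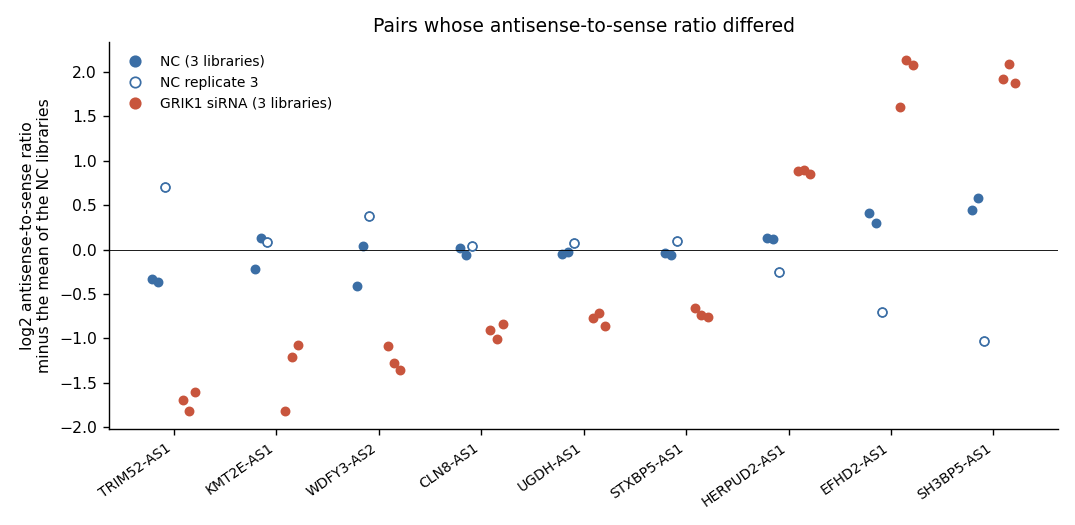
Log2 ratio of antisense gene to sense partner, minus the mean of the NC libraries (vertical), in each library for the 9 pairs whose ratio differed; blue marks NC with NC replicate 3 as an open circle, red the libraries labelled GRIK1 siRNA. Groups do not overlap in any of the 9 pairs, and 6 pairs lie below and 3 above the NC libraries.

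The largest difference of a ratio was that of SH3BP5-AS1 (ENSG00000224660, chr3:15254184-15264515, plus strand), tail-to-tail with SH3BP5, which encodes a guanine nucleotide exchange factor for RAB11. SH3BP5-AS1 had 35.7, 36.8 and 11.8 CPM in NC and 83.1, 79.4 and 76.8 CPM in the others. SH3BP5 had 17.5, 16.4 and 16.2 CPM against 14.6, 12.3 and 13.9 CPM. The antisense gene was higher and the partner lower in every library labelled GRIK1 siRNA, and the log2 ratio differed by 1.96 (SE 0.40, limma adjusted p = 0.0444), or by 1.45 (SE 0.14, adjusted p = 1.71e-08) without NC replicate 3, the NC library with the least SH3BP5-AS1. In EFHD2-AS1 the ratio differed by 1.94 (SE 0.33, limma adjusted p = 0.0301), with the values of both genes given above.

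TRIM52-AS1 (ENSG00000248275, chr5:181261169-181272307, plus strand) starts 19 bp from TRIM52, a gene for a RING-type ubiquitin ligase, and runs the other way. It had 8.80, 7.97 and 10.8 CPM in NC and 6.0, 5.59 and 5.64 CPM in the other group. TRIM52 had 27.4, 25.4 and 16.3 CPM against 48.4, 49.3 and 42.9 CPM (log2 fold change 1.03, SE 0.20, edgeR adjusted p = 0.0422). The antisense gene was lower and the partner higher with no overlap, and the log2 ratio differed by -1.71 (SE 0.31, limma adjusted p = 0.0315), or -1.36 (SE 0.19, adjusted p = 3.14e-06) without NC replicate 3. Of all pairs with opposite signs, this one had the largest smaller difference.

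KMT2E-AS1 (ENSG00000239569, chr7:105013277-105014321, minus strand) lies near a start of KMT2E, which encodes a chromatin protein with a SET domain. It had 3.73, 4.21 and 3.02 CPM against 1.5, 2.33 and 2.67 CPM, and KMT2E had 100.2, 88.1 and 66.4 CPM against 130.0, 128 and 133 CPM. Neither gene passed alone, and the log2 ratio differed by -1.37 (SE 0.29, limma adjusted p = 0.0450). WDFY3-AS2, head-to-head with the autophagy adaptor gene WDFY3, had 3.73, 5.46 and 4.68 CPM against 3.87, 3.57 and 3.41 CPM with overlapping groups. WDFY3 rose from 50.4, 53.4 and 36.3 CPM to 83.1, 88.0 and 89.2 CPM (0.89, SE 0.16, edgeR adjusted p = 0.0359), so the ratio differed by -1.24 (SE 0.26, limma adjusted p = 0.0450). In CLN8-AS1 the ratio differed by -0.92 (SE 0.15, limma adjusted p = 0.0301). The other 3 pairs of the 9 were UGDH-AS1 (-0.78), STXBP5-AS1 (-0.72) and HERPUD2-AS1 (0.88), named to complete the count.

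Opposite signs without a difference of the ratio past the test were found in PRR7, LURAP1L and POU2F2. PRR7, a transmembrane adaptor gene, fell from 8.54, 8.51 and 9.92 CPM to 4.58, 4.73 and 4.68 CPM (log2 fold change -0.95, SE 0.16, edgeR adjusted p = 0.0320). PRR7-AS1, at 1.78, 0.985 and 0.635 CPM against 1.42, 2.09 and 1.86 CPM, overlapped between the groups, and the ratio had an adjusted p of 0.0805 in limma. LURAP1L-AS1 had 2.05, 1.70 and 1.9 CPM against 1.42, 1.47 and 1.04 CPM, and LURAP1L 24.0, 25.6 and 32.1 CPM against 43.0, 38.8 and 40.9 CPM, both without overlap (ratio adjusted p = 0.0920 in limma). POU2F2, the gene of the transcription factor OCT2, had 108 CPM in NC replicate 3 and 234 to 304 CPM in the other 5 libraries, so that its difference of 0.51 (SE 0.30) fell to 0.22 (SE 0.08) without that library. POU2F2-AS1 had 9.69, 6.45 and 10.6 CPM against 5.36, 6.13 and 5.79 CPM.

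Of 14 antisense genes listed for earlier descriptions of their function, 7 were members, and none of these passed the test with 6 libraries. OIP5-AS1 (known in other vertebrates as cyrano) had 137, 143 and 263 CPM in NC and 114, 118 and 121 CPM in the others. It was lower in every library labelled GRIK1 siRNA, and the log2 fold change was -0.62 (SE 0.25, edgeR adjusted p = 0.171) with NC replicate 3, the highest library, and -0.25 (SE 0.05, adjusted p = 0.000996) without it. OIP5, a centromere protein gene, had 1.60 to 2.41 CPM with no separation. MCM3AP-AS1 was low in NC replicate 3 (3.02 CPM) and lay between 9.60 and 12.8 CPM in the other 5 libraries. PSMA3-AS1 likewise had 36.7 CPM there and 63.8 to 70.8 CPM elsewhere, while PSMA3, a proteasome subunit gene, had its highest value, 284 CPM, in that library.

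SBF2-AS1 was highest in NC replicate 3 (23.2 CPM, against 11.8 to 14.2 CPM elsewhere). ZEB1-AS1, head-to-head with the gene of a mesenchymal transcription factor, had 2.67, 4.3 and 3.09 CPM against 3.08, 3.03 and 3.27 CPM, with overlapping groups (log2 fold change -0.10, SE 0.24, edgeR adjusted p = 0.801). GATA6-AS1 had 6.76, 10.1 and 4.13 CPM against 6.07, 5.04 and 4.16 CPM, with a log2 fold change of -0.46 (SE 0.34, edgeR adjusted p = 0.399) with 6 libraries and -0.73 (SE 0.21, adjusted p = 0.00907) without NC replicate 3. FGD5-AS1, the remaining member of the list, is described above. GRIK1-AS1, the antisense gene of the targeted locus, had 3, 7 and 6 counts in NC and 2, 2 and 3 counts in the others and was too low to be a member.

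3 partners had more than 1 antisense gene among the members. TMEM44-AS1, at the 3′ end of TMEM44, had 4.71, 5.73 and 4.76 CPM against 7.73, 8.07 and 9.95 CPM, without overlap (log2 fold change 0.76, SE 0.18, edgeR adjusted p = 0.0636). TMEM44-AS2, at its 5′ end, had 2.40, 3.85 and 3.57 CPM against 1.97, 2.48 and 1.63 CPM (-0.69, SE 0.28, adjusted p = 0.173), and TMEM44 itself differed by 0.06 (SE 0.18). CNIH3-AS1 and CNIH3-AS2, inside the gene of an AMPA receptor auxiliary subunit, had log2 fold changes of 0.45 (SE 0.28) and 0.22 (SE 0.19), where CNIH3 had -0.29 (SE 0.11). DLGAP1-AS1 and DLGAP1-AS2 were abundant, at 11.8 and 11.3 FPKM, within a postsynaptic scaffold gene at 0.31 FPKM, and differed by 0.29 (SE 0.16) and 0.32 (SE 0.14). None of these 9 genes passed the test with 6 libraries.

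At the count limit, DUT-AS1 and EPHA5-AS1, with sums of 100 each, were the last inside, and WWC2-AS2 and TOB1-AS1, with 99 each, the first outside. DUT-AS1 had 2.05, 2.51 and 0.555 CPM in NC and 1.42, 0.543 and 1.26 CPM in the others, which shows the spread at this depth.

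Proteins that process or bind antisense RNA were read from lists. Of 27 genes of nuclear RNA decay and 3′ end processing (the exosome and its adaptors among them), all tested, 0 passed in edgeR or DESeq2 with 6 libraries, 4 (14.8%, against 27.2% of all genes) had an unadjusted p under 0.05 in edgeR, and the median log2 fold change was -0.01. Without NC replicate 3, 5 were higher and 4 lower (33.3%), below the 40.7% of all genes called in that fit. In the list of 21 symbols for genes that bind, edit or sense double-stranded RNA, RIGI and DDX58 name the same gene, and all 20 genes were tested. Of these, 0 passed in edgeR and 6 (30.0%, against 27.2% of all genes) had an unadjusted p under 0.05. DESeq2 called 2 lower where it called 12.8% of all genes, and the median log2 fold change was 0.07. In the fit without NC replicate 3, 4 were higher and 6 lower (50%, against 40.7% of all genes).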

How the data were processed

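RNA of U87-MG cells was sequenced in 6 libraries, grouped by their labels alone (3 NC, 3 GRIK1 siRNA). The submitters' processing notes name cutadapt 1.9.1, HISAT2, HTSeq and GRCh38; the strand setting is not given in the sources used here. The authors deposited whole-number read counts per gene, without normalization, and FPKM values computed from these counts, the library total and the exonic size (a formula that gave 100% of the deposited FPKM values within 0.0051). No library was pooled, 0 columns of values were unassigned and 0 rows named no gene. Log2 CPM was computed here from the deposited counts.

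Genes with a count sum of at least 100 (14229) were tested on counts with the quasi-likelihood test of edgeR 4.0.16 (TMM scaling, no covariate, Benjamini-Hochberg over all genes, adjusted p under 0.05) in R 4.3.3. SE was taken as the absolute log2 fold change over the root of F. Antisense-to-sense ratios were tested with limma 3.58.1 on differences of log2 CPM (prior count 2) over 2727 opposite-strand pairs, with adjustment over these. Both steps were also run on simulated counts with planted differences. These counts held no library that stood apart and no correlation within pairs, so the simulation does not cover these features of the data. Python 3.11.15, pandas 2.3.3 and scipy 1.17.1 did the rest. Alternatives were DESeq2 1.42.0, median-of-ratios scaling, no filter, a mean of at least 0.5 FPKM, other prior counts and pseudocounts, a replicate block and leaving out each library. A pseudocount of 0.1 and left-out libraries for GRIK1 were added after seeing the data.

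The named genes were the antisense genes past the test (up to 10, by size), the 5 with the highest FPKM, the 5 pairs each of the same and of opposite sign with the largest smaller difference, up to 6 pairs past the ratio test, listed antisense genes, partners with several antisense genes, the genes next to the count limit, and GRIK1 with its antisense gene. Members, lists and tests were chosen with earlier results of these data known. A count of 0 allows up to 3 counts in a library, for counting error only. Sequences come from RefSeq.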

Additional observations from a re-analysis of the deposited data

How the results depend on the processing

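With DESeq2, 29 antisense genes (8.08%) and 47 partners (14.7%) were called, against 12.8% of all genes. Without the count filter it was 24 (6.69%) and 31 (9.69%), against 4.12% of 34080 genes. These antisense genes and partners all reached the count of 100, while only 14229 of the 34080 genes did. The shares without the filter thus have unlike bases, and their order is not comparable with that under the filter. With a mean of at least 0.5 FPKM it was 5 (1.75%) and 11 (3.57%), against 3.09%, and with median-of-ratios scaling 9 and 13, against 4.24%. A fold limit left 6 antisense genes and 3 partners. Leaving out 1 library gave 0 to 91 antisense genes, 0 to 156 partners and 0 to 65 ratios, where the highest counts were those without NC replicate 3 and each 0 those without any other single library. The ratio test called 9 pairs with a prior count of 0.5 and with median-of-ratios scaling, and 0 of 355 member pairs without the filter (80 at an unadjusted p under 0.05 in limma, 22.5% against 16.0% of all pairs), where 2 of 11380 pairs passed. These bases are unlike too, since both genes reached the count in only 2727 of the 11380 pairs. Deviations of same-numbered libraries from their group means correlated at -0.08, 0.04 and -0.06. With 3 libraries per group, NC replicate 3 dominates the NC deviations, so this cannot decide whether the replicate numbers pair the libraries. With the replicate number as a block, edgeR called 0 antisense genes (64 or 17.8% at an unadjusted p under 0.05) and 0 partners (82 or 25.6%), against 22.8% of all genes, and limma 0 ratios (63 or 19.5%, against 22.9% of all pairs), while the correlation across pairs was 0.23. That correlation was 0.20 on the log2(FPKM + 1) scale and 0.20 to 0.25 with 1 library left out, and the pairs of the same sign numbered 174 to 190. GRIK1 differed by 0.47 with a pseudocount of 0.1, and by 0.06 to 0.21 with 1 library left out. Of the named genes and pairs, none that passed its test changed sign, 49 values fell short of the threshold under an alternative, 26 came to pass it and 349 kept their side. Precision was limited by low counts, with a median SE of 0.29 for the antisense genes at a median of 283 counts over 6 libraries. The strand setting is not given, and the check of bases covered by both strands was void for the members.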
